A study of Homo sapiens with 6 samples.

Results

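The BCL2 family was examined in H661 cells, an established line from a large cell carcinoma of the lung, through 10 of its genes, namely BCL2, BCL2L1, MCL1, BAX, BAK1, BCL2L11, BID, BBC3, BAD and BIK. A gene was included when a probe set of the array was annotated with that symbol and no other, and all 10 genes were found, each with 1 probe set, among 18404 genes named in the same way. To ask what loss of SALL4, a zinc finger transcription factor of embryonic stem cells, does to expression in these cells, the study compared H661 cells given a lentiviral shRNA against SALL4 (SALL4-sh, 3 arrays) with H661 cells given a lentiviral scrambled shRNA (Scr-sh, 3 arrays). Both groups were therefore transduced cells of the same line, 1 hairpin sequence stands for the knockdown, and the sources used here do not give the time from transduction to RNA extraction. The methods describe results in general as coming from independent experiments, without saying whether the replicate arrays stand for separate cultures. The p-values therefore set the difference between the groups only against the scatter of these samples, which may be technical.

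Proteins of the BCL2 family decide whether the outer membrane of the mitochondrion stays closed. BAX and BAK1 are the effectors that open it and release cytochrome c, BCL2, BCL2L1 and MCL1 hold the effectors back, and the BH3-only proteins, here BCL2L11, BID, BBC3, BAD and BIK, either activate the effectors or occupy the groove of the anti-apoptotic members. Lung carcinomas often depend on MCL1 or BCL-xL, the product of BCL2L1, for survival. Much of the regulation of the family is by protein turnover and phosphorylation, which RNA measurements do not see.

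The intensities are on a linear scale with a floor, since no deposited value is below 8, and 38.8% to 40.4% of the values of an array stood at exactly 8. All 10 genes lay above the floor on all 6 arrays, except that BIK stood at it in Scr-sh replicate 2. Precision is set by the number of arrays. SALL4 itself had intensities of 33.6, 31.9 and 26.5 in SALL4-sh and of 126, 104 and 130 in Scr-sh, which put the log2 fold change at -1.97 ± 0.14 (SE; limma adjusted p = 0.0159). With 1 array left out its adjusted p stayed under 0.05 only without Scr-sh replicate 2 (0.0309) and was 0.0523 to 0.0741 in the other 5 cases, whereas with dim genes left out as described below it was 0.00504 to 0.0189 in all 6. Of 5 epithelial markers, EPCAM was 590 or more on every array, and CDH1 was called higher, with 16.1 to 17.3 in SALL4-sh and 8 to 10.5 in Scr-sh (log2 fold change 0.91, limma adjusted p = 0.0456). KRT18, KRT19 and KRT8 did not pass, at log2 fold changes of -0.44, -0.11 and 0.07, and the lung marker NKX2-1 did not exceed 16.8. The 3 endothelial markers and 3 of the 5 measured leukocyte markers stood at the floor on all arrays. The summed intensity of 5 fibroblast markers was 276 to 342 in SALL4-sh and 359 to 442 in Scr-sh. That of the 5 leukocyte markers was 64.5 to 67.4 in SALL4-sh and 68.0 to 104 in Scr-sh. Of the leukocyte markers not at the floor throughout, CD68 had 33.0, 35.4 and 30.5 in SALL4-sh and 34.0, 69.9 and 71.6 in Scr-sh. CD14 had a log2 fold change of 0.003, and neither passed. Of the fibroblast markers COL1A1 was called lower over all genes (-0.48, limma adjusted p = 0.0387) and COL1A2 with the dim genes left out (-0.79, limma adjusted p = 0.0301), COL3A1 stood at 0.24 and PDGFRB at -0.07 without passing, and DCN was at the floor. The part of these markers in the results below was not tested, and in bulk RNA fewer cells of a type and less RNA per cell cannot be told apart.

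BAK1 and BCL2L11 were the 2 genes of the family whose SALL4-sh values all lay below their Scr-sh values, and none lay above in this sense. None of the 10 genes passed an adjusted p of 0.05 from limma over all genes, where 1.18% of genes were called higher and 1.33% lower. When the dim genes, those up to the 25th percentile of mean log2 intensity, were left out before the test, BAK1 was called lower, and in that test 5.95% of genes were called higher and 5.54% lower. At an unadjusted p under 0.05 from limma, 0 of the 10 were higher and 2 were lower, BAK1 and BCL2L11, against 9.55% and 7.87% of all genes. Groups that did not overlap were found for 15.0% of genes in the higher and 12.5% in the lower direction, taken over the 14511 genes not at the floor throughout, so the 2 of 10 lie near that background. The median log2 fold change of the 10 genes was 0.08, and 6 of the 10 values were positive. That of all genes was 0, and that of the 14511 genes not at the floor throughout was 0.01.

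**Figure D1:**
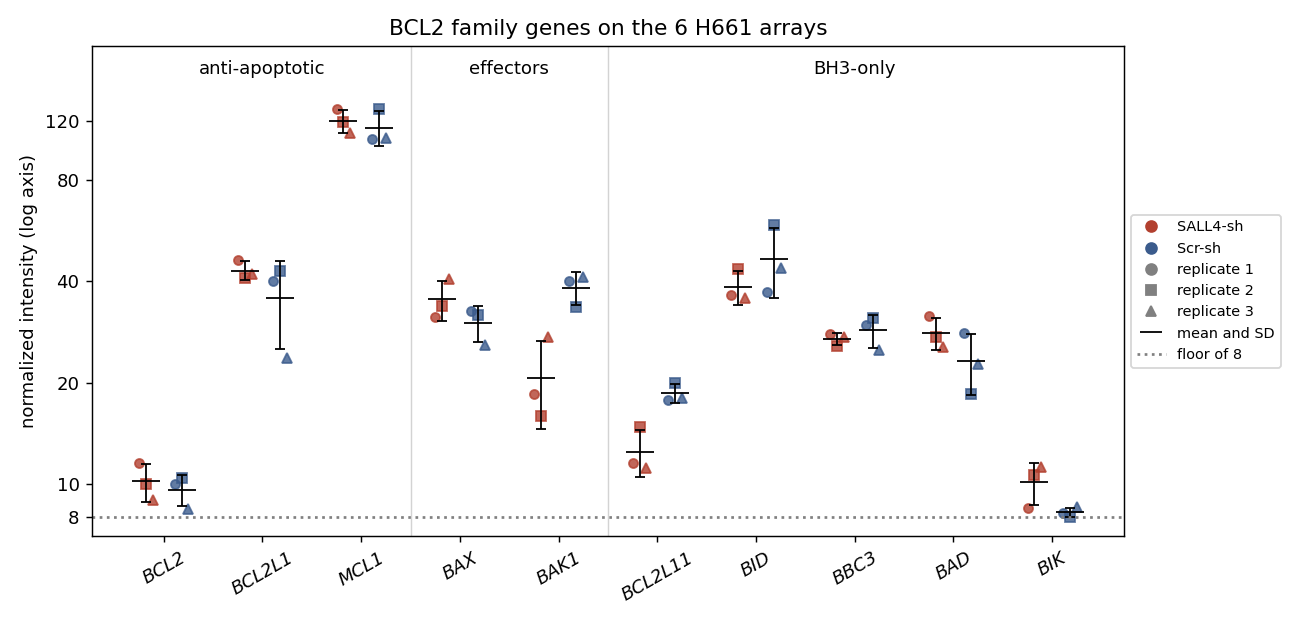
Normalized intensity (log axis) of the 10 BCL2 family genes on each H661 array, SALL4-sh in red and Scr-sh in blue, with marker shapes for replicates, black bars and whiskers for the mean and SD of 3 arrays, and a dotted line at the floor of 8. The groups are apart for BAK1 (means 20.6 and 38.3) and BCL2L11 (12.5 and 18.6) and overlap for the other genes.

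Because BAK1 and BCL2L11 were the genes with separated groups, the 250 bases before their transcription starts are shown, from RefSeq on GRCh38.p14, on each gene's own strand. The BAK1 window is chr6:33580277-33580526 (minus strand) and the BCL2L11 window is chr2:111120664-111120913 (plus strand). Capitals mark matches to 4 motifs searched on both strands, which were the GC box GGGCGG bound by SP1-type factors, the forkhead site GTAAACA bound by FOXO factors, the AT-rich word ATATT, of the kind that zinc fingers of SALL4 are known to bind, and the interferon element, spelled GAAA, any 2 bases, GAAA.
BAK1: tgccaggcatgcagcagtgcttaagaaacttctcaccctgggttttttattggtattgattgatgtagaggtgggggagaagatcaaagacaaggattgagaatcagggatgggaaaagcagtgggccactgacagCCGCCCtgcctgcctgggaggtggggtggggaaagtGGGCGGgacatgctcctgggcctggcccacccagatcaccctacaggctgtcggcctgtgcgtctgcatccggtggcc
BCL2L11: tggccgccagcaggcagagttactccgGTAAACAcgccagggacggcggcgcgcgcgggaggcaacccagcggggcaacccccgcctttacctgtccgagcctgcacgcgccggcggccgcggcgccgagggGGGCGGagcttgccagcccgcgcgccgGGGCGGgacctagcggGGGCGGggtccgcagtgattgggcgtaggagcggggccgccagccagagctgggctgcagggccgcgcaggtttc

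The BAK1 window held 2 GC boxes, 1 on each strand, and the BCL2L11 window held 3 GC boxes and 1 forkhead site. BCL2L11 is a known target of FOXO factors. Within these windows no match overlapped another. Of all 35116 windows of this length in the RefSeq table, 42.6% held the GC box, 2.98% the forkhead site, 21.4% the AT-rich word and 3.02% the interferon element. Windows were listed for 8 of the 10 genes, 14 in all with some overlapping, and of these 9 held the GC box, 1 the forkhead site, and 0 each of the other motifs. A match describes the letters and is no evidence of binding.

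BAK1, an effector that sits in the outer mitochondrial membrane, had intensities of 18.6, 15.9 and 27.4 in SALL4-sh, against 40.2, 33.4 and 41.2 in Scr-sh. The highest SALL4-sh value, that of replicate 3, stayed below the lowest Scr-sh value, that of replicate 2. Its mean was 20.6 ± 6.02 in SALL4-sh and 38.3 ± 4.21 in Scr-sh (SD, n = 3 each). The ratio of SALL4-sh to Scr-sh from the log2 fit, which compares geometric means, was 0.526 (limma 95% interval 0.337 to 0.821). The log2 fold change was -0.93 (standard error 0.24), with an adjusted p of 0.156 from limma over all genes and of 0.0272 with the dim genes left out. An exact two-sided permutation test of the 6 values gave p = 0.1, which is the smallest p that 3 against 3 arrays allow. With the dim genes left out and 1 array removed, BAK1 kept an adjusted p under 0.05 without SALL4-sh replicate 3 (0.0267 from limma) and without Scr-sh replicate 2 (0.0481), and lost it without SALL4-sh replicate 1 (0.107), SALL4-sh replicate 2 (0.127), Scr-sh replicate 1 (0.0916) or Scr-sh replicate 3 (0.113). Its log2 fold change over these removals ran from -1.15 to -0.76. The RefSeq gene table lists 2 pseudogenes of BAK1, and how far their RNA reaches the same probes was not tested.

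For BAX, the other effector, which moves to the mitochondrion upon activation, the groups were not apart. It had 31.4, 33.8 and 40.7 in SALL4-sh and 32.7, 31.7 and 25.9 in Scr-sh, so that the lowest SALL4-sh value lay within the Scr-sh range. The log2 fold change of BAX was 0.23 (95% interval -0.16 to 0.62, adjusted p = 0.567 from limma), and it was 0.12 without SALL4-sh replicate 3 and 0.13 without Scr-sh replicate 3. Whether BAX and BAK1 differ from each other in their response was not tested.

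BCL2L11 encodes BIM, a BH3-only protein that binds all anti-apoptotic members and activates the effectors. Its intensities were 11.5, 14.8 and 11.1 in SALL4-sh and 17.8, 20.02 and 18.1 in Scr-sh. Replicate 2 was the highest sample of both groups, and the groups were still apart. The mean was 12.5 ± 1.99 in SALL4-sh and 18.6 ± 1.22 in Scr-sh (SD, n = 3 each), and the ratio from the log2 fit was 0.665 (limma 95% interval 0.521 to 0.850). The log2 fold change was -0.59 (standard error 0.13), and the adjusted p was 0.124 from limma over all genes and 0.0581 with the dim genes left out. The exact two-sided permutation p was again 0.1. Its intensities lay near the floor of 8, which can shorten a fold change. Of the 12056 other genes above the floor on every array, MATN2, a matrix protein, PDLIM1, an actin-associated adaptor, and HBS1L, a ribosome rescue factor, had the log2 values that followed those of BCL2L11 most closely over the 6 arrays, with Pearson's r of 0.994, 0.993 and 0.991. These r describe 6 arrays that include the difference between the groups, and they carry no test. MATN2 had 23.3, 36.2 and 22.5 in SALL4-sh and 52.4, 77.4 and 56.9 in Scr-sh.

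For both BBC3 and BID the SALL4-sh and Scr-sh values overlapped. BBC3 encodes PUMA, a BH3-only protein that binds all anti-apoptotic members, and had 27.8, 25.8 and 27.4 in SALL4-sh against 29.6, 31.2 and 24.96 in Scr-sh. The 3 SALL4-sh values all fell within the Scr-sh range, and the log2 fold change was -0.08, with the narrowest 95% interval of the 10 genes, -0.34 to 0.18. It ran from -0.17, without Scr-sh replicate 3, to -0.01, without Scr-sh replicate 2. BID, which links death receptors to the mitochondrion once caspase-8 cleaves it, had 36.3, 43.5 and 35.6 in SALL4-sh and 37.3, 58.7 and 44.0 in Scr-sh. Scr-sh replicate 2 stood above the other 5 arrays, and without it the log2 fold change of BID was -0.08 in place of -0.26, while it was -0.41 without Scr-sh replicate 1 (adjusted p = 0.692 with all arrays, from limma).

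BAD and BIK were the 2 BH3-only genes with positive values. BAD binds BCL2 and BCL-xL and is held inactive by phosphorylation downstream of growth factor receptors. It had 31.5, 27.2 and 25.5 in SALL4-sh and 28.1, 18.6 and 22.8 in Scr-sh, with a log2 fold change of 0.29 (95% interval -0.20 to 0.79, adjusted p = 0.567 from limma). Scr-sh replicate 1 lay above 2 of the 3 SALL4-sh values, and the log2 fold change was 0.45 without that array and 0.15 without Scr-sh replicate 2. BIK, a BH3-only protein of the endoplasmic reticulum, had 8.497, 10.7 and 11.2 in SALL4-sh and 8.22, 8 and 8.53 in Scr-sh. The groups overlapped only through SALL4-sh replicate 1, which lay just under Scr-sh replicate 3, and the log2 fold change of 0.29 (95% interval -0.03 to 0.61, adjusted p = 0.343 from limma) is limited by the floor, at which 1 Scr-sh value stood.

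The 3 anti-apoptotic genes all had positive log2 fold changes, none past the threshold, and their groups overlapped. MCL1, whose protein turns over within a short time and which many carcinoma lines need, had 130, 119 and 111 in SALL4-sh and 106, 130 and 107 in Scr-sh. Its log2 fold change was 0.07 ± 0.11 (SE; limma adjusted p = 0.953), and the 95% interval of the ratio of SALL4-sh to Scr-sh was 0.855 to 1.29. Over the removals of 1 array this value ran from 0.01, without SALL4-sh replicate 1, to 0.17, without Scr-sh replicate 2, and after cyclic loess normalization its sign turned, at -0.02. BCL2L1 had 46.2, 40.8 and 42.1 in SALL4-sh and 40.0025, 43.0 and 23.7 in Scr-sh, so that 1 low array, Scr-sh replicate 3, set its difference. The log2 fold change was 0.32 with all arrays (95% interval -0.38 to 1.02), 0.05 without that array and 0.48 without Scr-sh replicate 2. BCL2, the founding member of the family, had 11.6, 10.0 and 8.95 in SALL4-sh and 10.0, 10.4 and 8.46 in Scr-sh. Its values lay close to the floor in both groups, and its log2 fold change of 0.08 (95% interval -0.28 to 0.44) turned to -0.02 without SALL4-sh replicate 1 and to -0.01 without Scr-sh replicate 3.

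**Figure D2:**
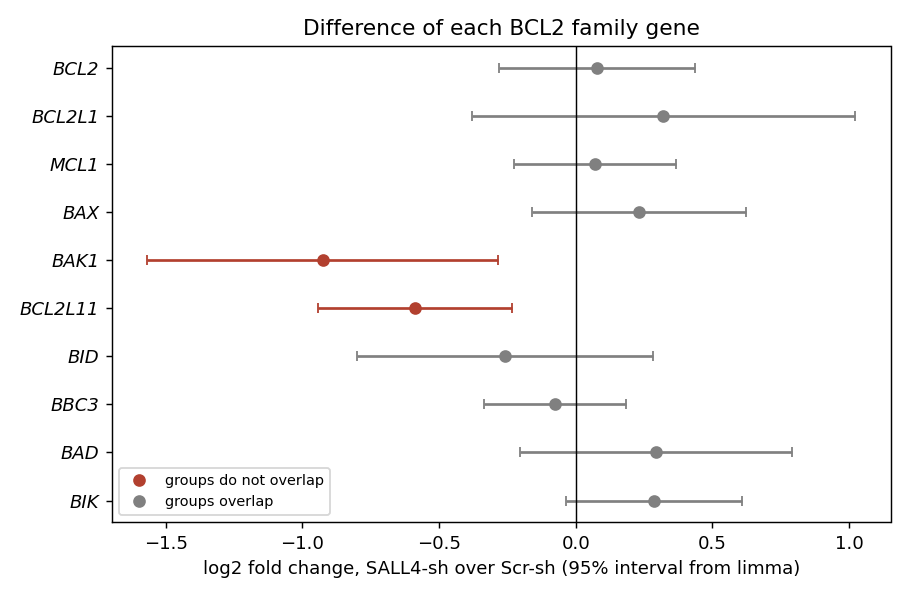
Log2 ratio of SALL4-sh to Scr-sh for each BCL2 family gene, with 95% intervals from limma (3 arrays a group). The intervals of BAK1 (-1.57 to -0.28) and BCL2L11 (-0.94 to -0.23) lie below 0 and the other 8 include 0; the intervals are not adjusted for the number of genes tested.

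The precision of the arrays bounds what could be seen for the genes that did not pass. The SD of the log2 values within groups, pooled over both groups, was lowest for BBC3 at 0.13 and highest for BCL2L1 at 0.34. Over the 8 genes whose groups overlapped, the upper ends of the 95% intervals of the ratio of SALL4-sh to Scr-sh ran from 1.14 for BBC3 to 2.03 for BCL2L1, and the lower ends from 0.574 for BID to 0.976 for BIK. A doubling of BCL2L1 therefore lies just inside its interval, whereas one of MCL1 lies outside.

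**Figure D3:**
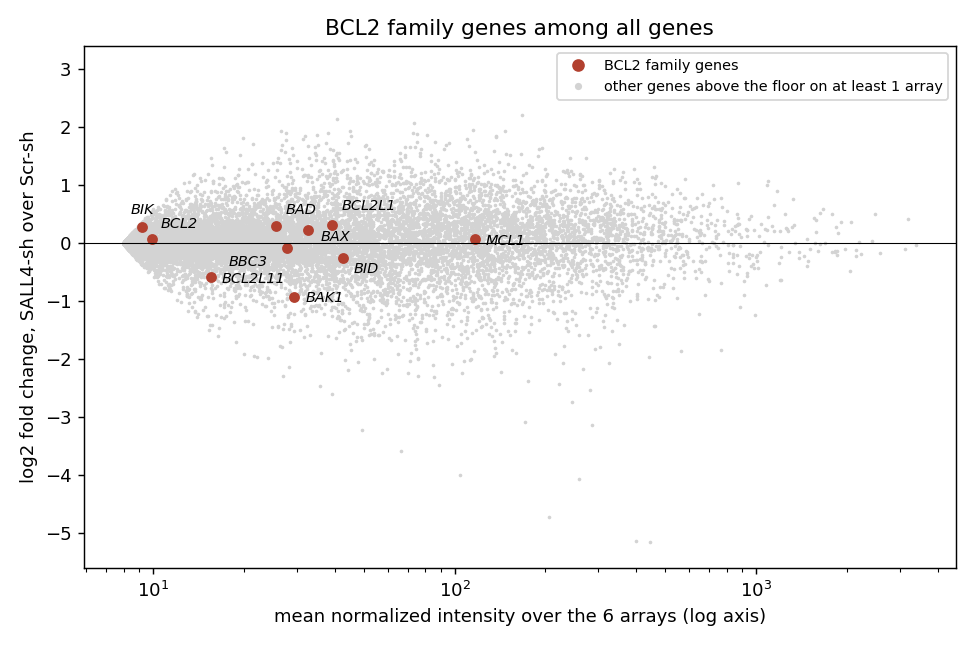
Mean normalized intensity over the 6 arrays (log axis) against the log2 ratio of SALL4-sh to Scr-sh for each gene above the floor on at least 1 array (grey), with the 10 BCL2 family genes in red. The family lies within the cloud of all genes, BAK1 lowest at -0.93 and BCL2L1 highest at 0.32.

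**Figure D4:**
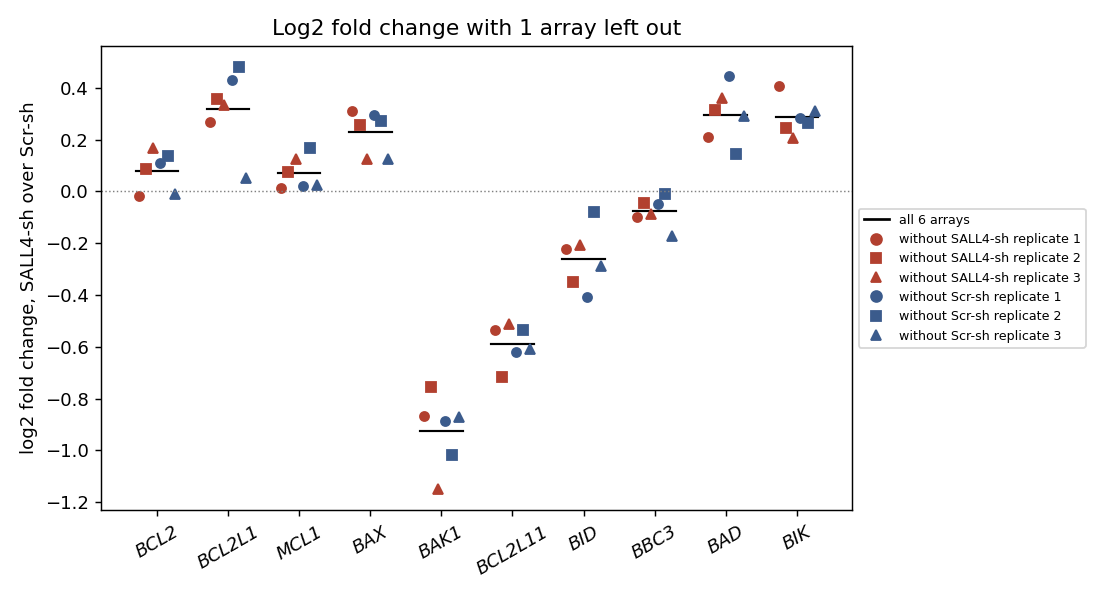
Log2 fold change of each BCL2 family gene with all 6 arrays (black lines) and with 1 array left out (red, a SALL4-sh array; blue, a Scr-sh array; marker shapes give the replicate). BAK1 stays between -1.15 and -0.76 and BCL2L11 between -0.72 and -0.51, and BCL2L1 drops to 0.05 without Scr-sh replicate 3.

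Other genes of the pathway were taken as 5 lists of 69 genes in all, of which 62 were measured. Over all 62, 0 were called higher and 1 lower (adjusted p under 0.05 from limma), and with the dim genes left out 4 of 54 were higher and 1 lower. These counts stand beside the 1.18% and 1.33% of all genes in the first test and the 5.95% and 5.54% in the second. The median log2 fold change of the 62 was 0.03.

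Among 13 measured further members of the family, BCL2L13, an outer membrane protein with BCL2 homology that acts as a mitophagy receptor, was called lower with the dim genes left out. Its intensities were 15.4, 15.9 and 15.7 in SALL4-sh and 27.9, 20.8 and 40.3 in Scr-sh, which gave a log2 value of -0.87 (limma adjusted p = 0.205 over all genes, 0.0424 with the dim genes left out). The SALL4-sh values were tight and the Scr-sh values were spread. BNIP3, a BH3-domain mitophagy receptor induced by hypoxia, was the other gene of the list at an unadjusted p under 0.05 from limma, with a log2 fold change of 0.36, and is named after its values were seen. The list's median log2 fold change was -0.11. BCL2A1, an anti-apoptotic member of blood cells, and BCL2L15 never left the floor. PMAIP1, which encodes NOXA, was above it only in Scr-sh replicate 2, at 10.1.

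None of the 11 measured genes of the apoptosome and caspases passed either test, and 8 of the 11 log2 fold changes were positive, with a median of 0.13. APAF1, the scaffold of the apoptosome, had 75.1, 71.9 and 77.0 in SALL4-sh and 44.8, 66.3 and 45.2 in Scr-sh (log2 fold change 0.54, adjusted p = 0.237 from limma). CYCS, cytochrome c, had 228, 336 and 267 in SALL4-sh and 115, 225 and 183 in Scr-sh (0.70, adjusted p = 0.377 from limma). DFFA, the inhibitor of the caspase-activated DNase, stood at 0.64 on the log2 scale (limma adjusted p = 0.242). For these 3 genes every SALL4-sh value exceeded every Scr-sh value, as it did for 15.0% of the genes not at the floor throughout. The fourth smallest p of the list was that of CASP6, an executioner caspase, with a log2 fold change of 0.16.

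Of the 6 measured genes of the IAP family, whose products inhibit caspases or act in cell division, none passed. BIRC6, a large ubiquitin ligase of the family, had 60.5, 66.9 and 67.4 in SALL4-sh against 79.0, 83.2 and 70.4 in Scr-sh, with separated groups and a log2 value of -0.25 (limma adjusted p = 0.231). XIAP, the direct caspase inhibitor, had a log2 fold change of 0.55, BIRC5, survivin, of -0.47 and BIRC2 of 0.31, and the groups of these 3 overlapped.

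Among 12 measured death receptors and their adaptors, TNFRSF10D, a decoy receptor that binds TRAIL without signaling death, was called higher with the dim genes left out. It had 49.2, 29.0 and 41.0 in SALL4-sh and 23.9, 22.1 and 22.5 in Scr-sh, or 0.77 on the log2 scale (limma adjusted p = 0.179 over all genes, 0.0437 with the dim genes left out). Here the Scr-sh values were tight and the SALL4-sh values spread. FASLG and TNFSF10, the ligands of FAS and of the TRAIL receptors, stood at the floor on all arrays. The other 9 genes passed neither test, and the median of the list was 0.04. Among these 9, TNFRSF1A had the smallest unadjusted p of the list from limma (0.00308), with separated groups and a log2 fold change of 0.54. Its adjusted p from limma was 0.0752 over all genes and 0.0604 with the dim genes left out.

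The 20 measured partners and modifiers held the gene called over all genes. Groups did not overlap for 8 of the 20 in the higher and 5 in the lower direction. The shares among all genes not at the floor throughout were 15.0% and 12.5%. The list was chosen with earlier results of these data known, and it was not tested as a set. USP9X, a deubiquitinase that stabilizes MCL1 protein, had 290, 317 and 296 in SALL4-sh and 406, 412 and 426 in Scr-sh, or -0.46 on the log2 scale (limma adjusted p = 0.0259), and with the dim genes left out its adjusted p was 0.0795. The groups were tight and far apart relative to their spread. With 1 array removed its log2 fold change stayed at -0.50 to -0.44, and its adjusted p over all genes was 0.0476 to 0.101, under 0.05 only without SALL4-sh replicate 2. VDAC2, the channel of the outer membrane that holds BAK1 there, had 467, 515 and 516 in SALL4-sh and 364, 333 and 304 in Scr-sh (log2 fold change 0.58, adjusted p = 0.0548 from limma over all genes, 0.0426 with the dim genes left out). VDAC3, its relative, had a log2 fold change of 0.80 (0.162 and 0.0366 in the same 2 tests). BTRC, the F-box subunit of a ligase that marks BIM for degradation, had 86.2, 72.2 and 53.6 in SALL4-sh and 22.9, 50.1 and 30.3 in Scr-sh, a log2 fold change of 1.09 (0.246 and 0.0426). Genes of the VDAC group have several pseudogenes, which the probes may not separate.

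With 1 array removed the log2 fold changes kept their direction, at -1.10 to -0.62 for BCL2L13, 0.83 to 1.40 for BTRC, 0.52 to 0.65 for VDAC2, 0.61 to 0.99 for VDAC3 and 0.60 to 0.98 for TNFRSF10D, and most of these calls were lost with fewer arrays. With the dim genes left out and 1 array removed, BCL2L13, BTRC and VDAC3 kept an adjusted p under 0.05 only without Scr-sh replicate 2 (0.0189, 0.0194 and 0.0189 from limma), TNFRSF10D only without SALL4-sh replicate 2 (0.0382), and VDAC2 in none of the 6 cases (0.0597 to 0.132). The highest values in these cases were 0.166 for BCL2L13, 0.197 for BTRC, 0.149 for VDAC3 and 0.154 for TNFRSF10D. Of 7 measured reference genes, 0 passed over all genes and PGK1, a glycolytic enzyme, was called lower with the dim genes left out, at -0.57 on the log2 scale (limma adjusted p = 0.0485). HPRT1 passed neither test, but its SALL4-sh values all lay above its Scr-sh values. Its log2 fold change was 0.53 (limma adjusted p = 0.227 over all genes, 0.108 with the dim genes left out). The groups of the remaining reference genes overlapped.

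**Figure D5:**
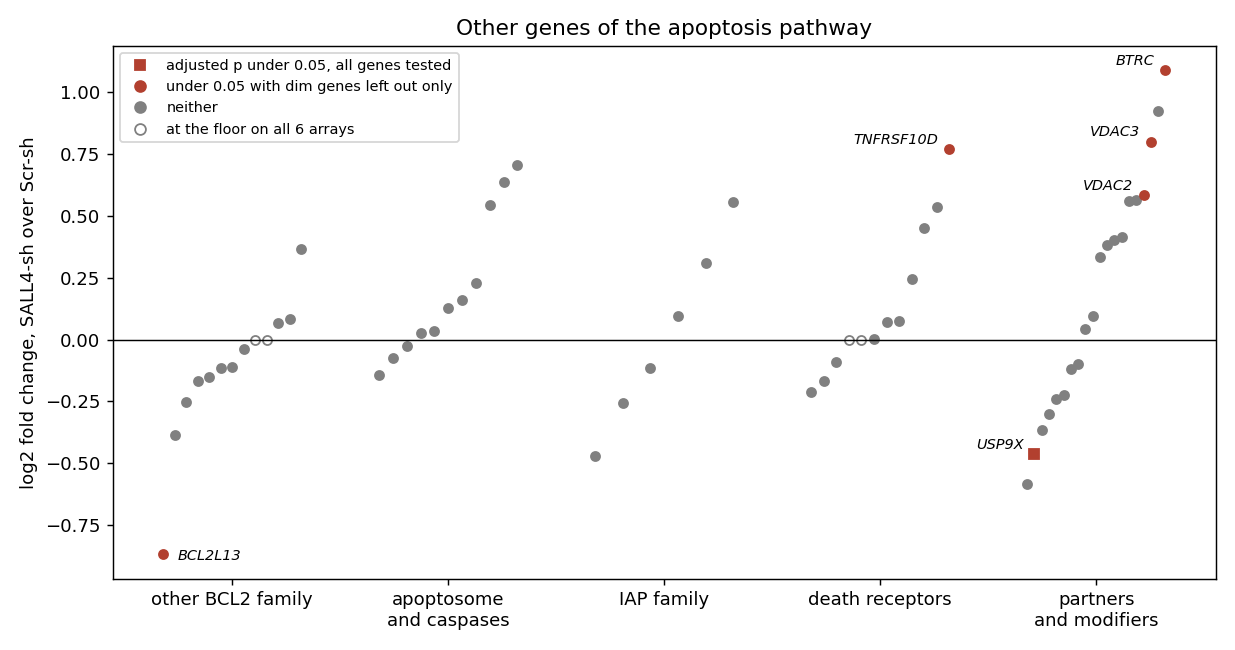
Log2 ratio of SALL4-sh to Scr-sh for the 62 measured genes of 5 apoptosis lists, 1 point a gene ordered by value within its list, from 3 arrays a group. USP9X (square, -0.46) passed an adjusted p of 0.05 from limma over all genes, the red circles passed with dim genes left out, from BCL2L13 at -0.87 to BTRC at 1.09, and open circles stood at the floor on all arrays.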

How the data were processed

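RNA of 6 samples of H661 cells was hybridised to Affymetrix arrays, and the authors deposited 1 table of intensity values on a linear scale covering 32321 probe sets. RMA is named in the submitters' processing notes without a version, and no genome build is given in the sources used here. The log2 of the deposited intensity was tested. Names came from the annotation of the platform, which gave 1 symbol to 19158 probe sets, several to 1388 (not used) and none to 11775. Each gene was read from its brightest probe set on average. Listed genes with no probe set under that symbol alone were not analysed here. SALL4-sh was tested against Scr-sh by lmFit and plain eBayes of limma 3.58.1 (R 4.3.3), with Benjamini-Hochberg adjustment over 18404 genes and a threshold of 0.05, and again without the dim genes, those up to the 25th percentile of mean log2 intensity (13803 genes tested). For that filtered test limma estimated 5.33 prior degrees of freedom, against 0.422 when every gene was kept. The filter removed other dim genes besides the 3893 that never left the floor and show no spread. How much of the change came from those 3893 was not tested. The script was tested on simulated data.

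The BCL2 family genes and the lists were chosen with earlier results of these data known. Named genes were the 10 family genes, SALL4, list genes past the threshold in either test and otherwise up to 4 of a list with the smallest p, and the 3 genes most correlated with the family gene of smallest p. BNIP3, TNFRSF1A, genes at the floor, markers, PGK1 and HPRT1 were named outside this rule, after their values were seen.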

Additional observations from a re-analysis of the deposited data

How the results depend on the processing

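The 10 BCL2 family genes gave 0 higher and 0 lower calls under cyclic loess, quantile normalization, median centring, removal of genes at the floor on all arrays, eBayes set to trend and robust, weights per array, averaging over probe sets, the replicate block alone, a one-way test across groups without moderated variance, and a 1.5-fold minimum. The call of BAK1 appeared with the 25th and 50th percentile filters (1 lower each), and with the 25th percentile filter joined to the replicate block (1 lower, a combination chosen after seeing the data). The 50th percentile filter removed BCL2, BCL2L11 and BIK, which were therefore not tested in that run. Unadjusted p gave 2 lower. Each of the 10 genes has 1 probe set, so averaging over probe sets left their values unchanged. The 1.5-fold minimum can only remove calls, so its count of 0 was fixed in advance. With 1 array left out the counts were 0 to 0 in both directions, and 0 to 0 higher and 0 to 1 lower when the 25th percentile filter was added, a combination also chosen after seeing the data.

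Over the 5 pathway lists (0 higher and 1 lower), the counts higher were 4 with the 25th and 4 with the 50th percentile filter, 3 without genes at the floor throughout, 2 with array weights, 1 with the mean of probe sets and 12 at unadjusted p, and the counts lower were 0 with trend and robust, 0 with the replicate block, 0 with the 1.5-fold minimum and 6 at unadjusted p. Leaving out 1 array gave 0 to 2 higher and 0 to 1 lower. Over all genes (218 higher and 244 lower) the counts were 821 and 764 with the 25th percentile filter, 825 and 740 with the 50th, 633 and 610 without genes at the floor throughout, 26 and 50 with trend and robust, 3 and 7 with the replicate block, 94 and 121 with the one-way test, 1757 and 1449 at unadjusted p, and 23 to 231 and 29 to 173 with 1 array left out, the highest without Scr-sh replicate 2. The 25th percentile filter also raised the prior degrees of freedom, and the cause of the changes in these counts was not tested.

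The replicate numbers paired the samples at most in part. Same-numbered arrays had correlations of their deviations from the group means of 0.15, 0.12 and -0.002. Replicates 1 and 2 correlated best with their own number, and replicate 3 did not. With the replicate block the log2 fold change of SALL4 was -1.97 with an adjusted p of 0.115 from limma. Left-out arrays moved SALL4 between -2.07 and -1.87. BCL2 turned to -0.017 without SALL4-sh replicate 1 and to -0.011 without Scr-sh replicate 3, with or without the 25th percentile filter, and reached 0.17 at most with 1 array left out, and MCL1 stood at -0.015 after cyclic loess. No other family gene changed sign under any alternative run. BCL2, BIK and BCL2L11 lie close to the floor of 8, and among the 10 genes the standard error was highest for BCL2L1, at 0.26.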
